A study of Mus musculus with 18 samples.

Results

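The 3 vascular endothelial growth factor (VEGF) receptors Flt1 (VEGFR1), Kdr (VEGFR2) and Flt4 (VEGFR3) were followed by gene symbol through 18 RNA libraries of the adult mouse small intestine, as 3 of 23238 genes counted. The libraries came from intestinal stromal cells (IntSCs), sorted for the tdTomato reporter that a tamoxifen-inducible Pdgfrb-driven Cre (CreERT2) switches on, and from lymphatic endothelial cells (LECs). Both cell types were taken from C57BL/6J mice labelled PDGFRb+-CreERT2-Tomato+ (WT) and from mice that also carried Lats1 f/f and Lats2 f/f (KO), so that the Cre and the reporter were shared by both genotypes. Lats1 and Lats2 are the kinases of the Hippo pathway that restrain YAP and TAZ, and the study asked how their deletion in Pdgfrb+ stroma affects lacteals, the lymphatic vessels of the villi. There were 6 WT IntSC, 5 KO IntSC, 4 WT LEC and 3 KO LEC libraries. The Pdgfrb-driven Cre is active in stromal cells and pericytes and is not directed at LECs, so KO LECs are LECs from mice whose stroma was targeted. IntSCs were depleted of CD31+ cells with beads before sorting, and LECs were sorted for CD31 and podoplanin. No VEGF receptor was used in either sort.

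VEGF receptors are tyrosine kinases of the endothelium. VEGFR2 binds VEGF-A and carries most of its signal for growth and permeability, VEGFR1 binds VEGF-A, VEGF-B and placental growth factor with weak kinase activity and acts largely as a trap for ligand, and VEGFR3 binds VEGF-C and VEGF-D and is the main growth receptor of lymphatic vessels. In adults, VEGFR1 is typical of blood vessels and VEGFR3 of lymphatic vessels, while VEGFR2 is present in both.

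The receptor genes lie on 2 chromosomes of the mouse assembly GRCm38 (mm10). Flt1 (RefSeq gene span chr5:147561604-147726438) and Kdr (chr5:75932827-75979072) are on the minus strand of chromosome 5, and Flt4 (chr11:49609679-49652739) is on the plus strand of chromosome 11. The 250 bases before the start that the RefSeq promoter table (GRCm38.p6) lists for each gene are shown. They are given because Kdr and Flt4 differed in 1 direction between the cell types and Flt1 in the other. They span chr5:147726012-147726261 for Flt1, chr5:75978456-75978705 for Kdr and chr11:49609429-49609678 for Flt4, and are written 5′ to 3′ along the gene. The Flt1 and Kdr windows lie inside the RefSeq gene spans above, which reach further upstream. GENCODE vM21 starts Flt4 at chr11:49609263, so the Flt4 window lies inside that transcript. Other starts were not examined, and positions below count from the listed start. Capitals mark matches to the GC box (GGGCGG), the TATA box (TATAAA) and the cyclic AMP response element (TGACGTCA) on either strand.
Flt1: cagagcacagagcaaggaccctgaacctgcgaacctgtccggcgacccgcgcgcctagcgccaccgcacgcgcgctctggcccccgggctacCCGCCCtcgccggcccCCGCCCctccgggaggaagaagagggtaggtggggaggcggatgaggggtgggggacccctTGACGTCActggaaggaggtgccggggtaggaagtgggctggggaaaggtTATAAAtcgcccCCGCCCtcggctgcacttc
Kdr: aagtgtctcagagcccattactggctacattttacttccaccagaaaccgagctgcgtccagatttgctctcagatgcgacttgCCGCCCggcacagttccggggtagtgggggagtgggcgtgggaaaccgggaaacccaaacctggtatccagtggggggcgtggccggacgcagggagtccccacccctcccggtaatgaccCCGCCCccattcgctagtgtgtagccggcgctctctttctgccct
Flt4: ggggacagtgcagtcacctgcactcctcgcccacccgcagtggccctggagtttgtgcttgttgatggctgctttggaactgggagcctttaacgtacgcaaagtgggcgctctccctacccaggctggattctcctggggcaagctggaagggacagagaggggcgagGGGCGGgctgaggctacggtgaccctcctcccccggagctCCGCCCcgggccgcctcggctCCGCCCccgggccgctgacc
All 3 windows held GC boxes, 3 in Flt1, 2 in Kdr and 3 in Flt4, and 33% of the 32536 promoters in the table held at least 1. TATAAA and TGACGTCA were found in the Flt1 window alone of the 3, at bases -31 to -26 and -81 to -74 from the listed start. They were in 12.3% and 1.56% of all promoters. The ETS core GGAA, a 4-letter motif that 93.4% of promoters hold, was matched 4 times in Flt1, 4 times in Kdr and 2 times in Flt4. GGAATG, the element bound by the TEAD partners of YAP and TAZ, was not in these windows, and it was in 12.6% of all promoters. The windows were rich in G and C, at 70.4% in Flt1, 61.6% in Kdr and 68.4% in Flt4, against a median of 52.4% over all promoters.

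Sequencing gave 5361250 to 10549233 counts per library, read at the 3′ end of transcripts, and 3 counts in a library corresponded to 0.284 to 0.560 CPM (counts per library total, the usual scale for such counts). Levels are CPM adjusted with TMM factors (a correction for library composition) over all 18 libraries. The precision of a level of a few counts is limited by counting error, and without molecular identifiers copies made by PCR are counted as if separate, so floors cover counting error only. The labels did not say whether libraries of a group came from different mice, so p-values measure the spread between these libraries. Prox1, the transcription factor that defines lymphatic endothelium, was at 33.3 to 117 CPM in the 7 LEC libraries and at 0 or 1 read in each IntSC library. Stromal markers summed to 8070 to 17908 CPM in IntSCs and to 340 to 2189 CPM in LECs, and WT LEC 1 had the highest sum of the LECs (659 to 716 CPM in the other 3 WT LECs). The labelled cell types thus carried their markers, and purity of the sorts was not measured. Lats1 was at 0 to 29.9 CPM in WT IntSCs and 12.5 to 21.6 CPM in KO IntSCs, and Lats2 at 40.8 to 112 and 78.4 to 133 CPM. Neither gene differed past the threshold (adjusted p of 0.987 and 0.252, edgeR), and 3′ reads can count a transcript that has lost internal exons, so these values do not check the genotype labels.

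Kdr and Flt4 were LEC transcripts. Kdr was at 1377, 1080, 1520.5 and 1687 CPM in the 4 WT LEC libraries and at 1303, 862 and 1048 CPM in the 3 KO LEC libraries. In WT IntSCs its lowest, median and highest values were 15.9, 35.9 and 61.4 CPM, and in KO IntSCs it was at 51.6, 99.3, 59.0, 35.6 and 55.6 CPM. Each LEC library was far above each IntSC library, and the order of group means was WT LEC (1416 ± 257, SD, n = 4), KO LEC (1071 ± 221, n = 3), KO IntSC (60.2 ± 23.6, n = 5) and WT IntSC (37.9 ± 16.5, n = 6). The libraries of neighbouring groups overlapped within each cell type and did not overlap between LECs and IntSCs.

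Flt4 had the sharpest contrast. It was at 1475, 1469, 1291 and 1550 CPM in WT LECs and at 1273, 1159 and 1274 CPM in KO LECs. In WT IntSCs it ranged from 0.260 to 5.66 CPM with a median of 4.71 CPM (2 to 42 counts), and in KO IntSCs it was at 5.48, 9.39, 5.71, 22.2 and 4.51 CPM (35 to 146 counts). The LEC values lay in a narrow band, with group means of 1446 ± 110 (SD, n = 4) and 1235 ± 66.0 (n = 3), and the IntSC values, with means of 3.82 ± 2.09 (n = 6) and 9.47 ± 7.37 (n = 5), were near the floor of detection in 1 WT library.

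Flt1 showed the opposite order. It was at 34.1, 45.5 and 83.0 CPM (lowest, median and highest) in WT IntSCs and at 101.7, 170.0, 156.6, 42.8 and 67.9 CPM in KO IntSCs. In WT LECs it was at 10.9, 26.7, 0.0935 and 0.0993 CPM and in KO LECs at 0.142, 7.54 and 10.8 CPM. LEC libraries fell into those with 69 to 217 Flt1 counts (WT LEC 1 and 2, KO LEC 2 and 3) and those with a single count (WT LEC 3 and 4, KO LEC 1), and both kinds occurred in each genotype. The group mean was 108 ± 55.0 in KO IntSCs (SD, n = 5) and 54.3 ± 21.7 in WT IntSCs (n = 6), and was lower at 9.46 ± 12.6 in WT LECs (n = 4) and 6.15 ± 5.44 in KO LECs (n = 3). Within each cell type the genotypes overlapped.

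**Figure D1:**
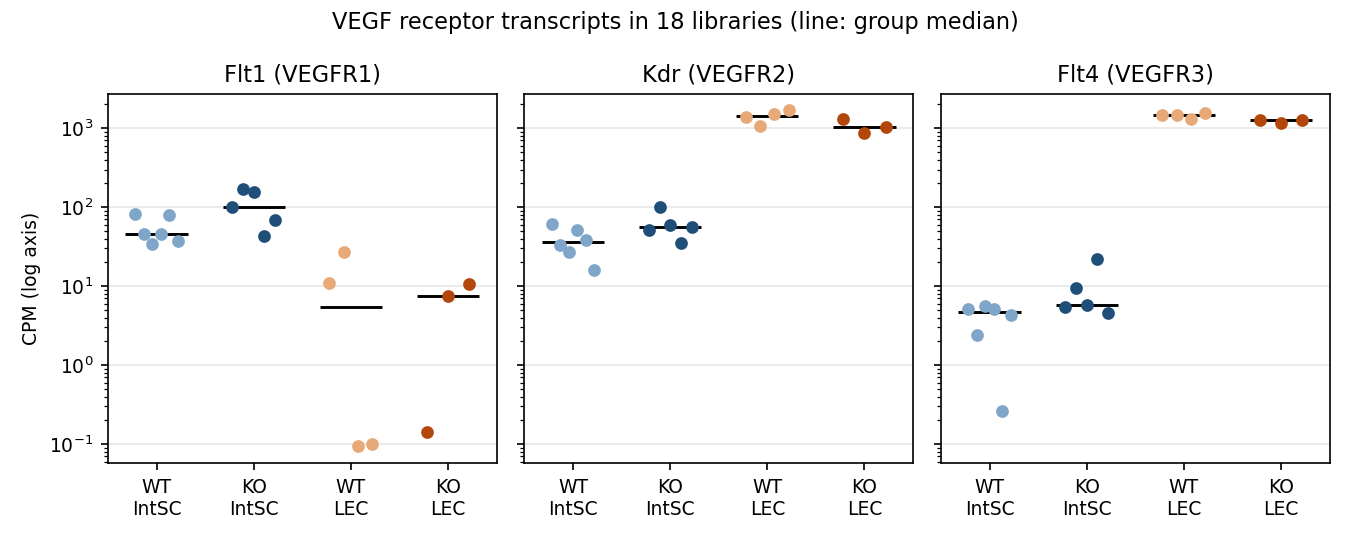
CPM of Flt1, Kdr and Flt4 on a log axis, 1 point per library in the 4 groups, with a line at each group median. Kdr and Flt4 sit at 862 CPM or more in each LEC library and at 99.3 CPM or less in each IntSC library, while Flt1 is highest in IntSCs and splits into libraries at 0.142 CPM or less and libraries at 7.54 CPM or more in LECs.

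The comparison of WT LECs with WT IntSCs asked how the receptors differ between the 2 cell types without the deletion. Kdr was 37.2-fold higher in LECs (log2 fold change 5.22 ± 0.33 SE, 95% interval 4.52 to 5.92, edgeR adjusted p = 2.99e-08) and Flt4 was 377-fold higher (8.56 ± 0.54, 7.40 to 9.72, adjusted p = 7.16e-08). For both genes all 4 WT LEC libraries were above all 6 WT IntSC libraries, which held for 9.76% of the genes tested. Of all genes tested, 10.3% were called higher and 12.3% lower in WT LECs. Flt1 had a log2 fold change of -2.54 ± 1.07 (interval -4.83 to -0.25) that did not pass the threshold (adjusted p = 0.112), although all 4 WT LEC libraries were below all 6 WT IntSC libraries (11.4% of genes). This result turned on WT LEC 2, the LEC library with the highest Flt1: without it the log2 fold change was -3.90 (adjusted p = 0.0437). DESeq2 and limma-voom also called Flt1 lower, with adjusted p of 0.0377 and 0.00798. In bulk libraries, fewer cells that carry a transcript and less RNA per cell cannot be told apart.

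In KO mice all 3 receptors differed between the cell types. Flt1 was 18.5-fold lower in KO LECs than in KO IntSCs (log2 fold change -4.21 ± 0.98, interval -6.38 to -2.04, adjusted p = 0.0105), and 16.8% of genes tested were called lower. Kdr was 16.9-fold higher (4.08 ± 0.32, 3.37 to 4.79, adjusted p = 1.33e-05) and Flt4 was 125-fold higher (6.97 ± 0.52, 5.82 to 8.12, adjusted p = 1.08e-05), where 9.11% of genes were called higher. The libraries of the 2 cell types did not overlap for any of the 3 genes, against 12.1% of genes with all KO LECs above and 20.1% with all KO LECs below. These calls held under each of the 16 alternatives tried per gene, with the highest adjusted p at 0.0390 for Flt1.

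**Figure D2:**
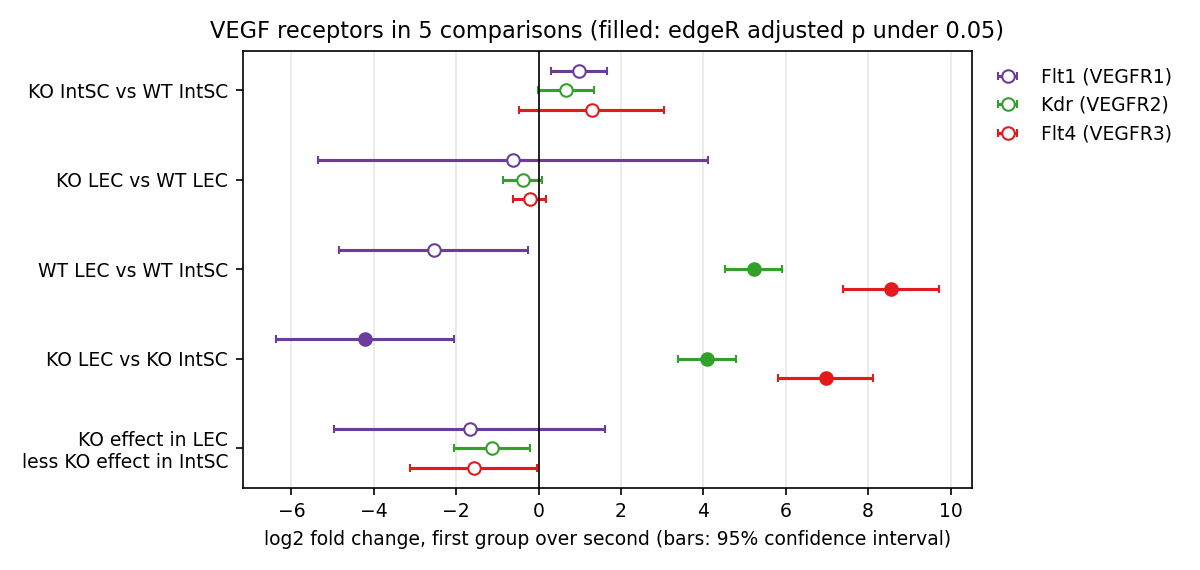
Fitted log2 fold change of Flt1, Kdr and Flt4 in the 5 comparisons with 95% confidence intervals, where filled points passed the edgeR threshold. The Kdr and Flt4 differences between LECs and IntSCs are far from 0 in both genotypes, the Flt1 interval between KO and WT LECs runs from -5.36 to 4.11, and no receptor passed in a comparison of KO with WT.

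All 3 receptors had a higher mean level in KO than in WT IntSCs, but none passed the threshold, where 1.47% of all genes did. Flt1 had a log2 fold change of 0.99 ± 0.33 (interval 0.31 to 1.67, unadjusted p = 0.00641, adjusted p = 0.174, edgeR), and 3 of 5 KO libraries lay above all 6 WT libraries. Its lowest adjusted p under any alternative was 0.0538, without KO IntSC 4, the KO library with the lowest Flt1. It was 0.502 without KO IntSC 2 and 0.504 with the replicate number as a block. With all 4 groups in 1 edgeR fit the unadjusted p was 0.308. Kdr had a log2 fold change of 0.67 ± 0.33 (-0.011 to 1.35, adjusted p = 0.516), and 1 of 5 KO libraries exceeded all WT libraries. Flt4 had a log2 fold change of 1.29 ± 0.84 (-0.47 to 3.05, adjusted p = 0.714), and 22.2 CPM in KO IntSC 4 stood apart from 4.51 to 9.39 CPM in the other 4 KO libraries. For Flt4, 3 of 5 KO libraries exceeded all WT libraries, and without KO IntSC 4 the log2 fold change was 0.71 (adjusted p = 0.944). Flt1 and Kdr were thus highest in KO IntSC 2 (170.0 and 99.3 CPM), and Flt4 in KO IntSC 4, where Flt1 and Kdr were lowest of the KO group.

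Some endothelial markers were also at higher levels in KO IntSCs. The 8 pan-endothelial markers summed to 418 to 581 CPM in WT and to 570 to 1181 CPM in KO IntSCs, and 7 of the 8 had a positive log2 fold change, where the list had a median of 0.86 and all genes a median of 0.00, though none of the 8 passed the threshold. The largest parts of this sum were Eng (mean 169 and 159 CPM in WT and KO), Esam (158 and 292 CPM) and Egfl7 (111 and 211 CPM). Of these, Esam was lower in LECs than in IntSCs, by log2 fold changes of -0.85 in WT (adjusted p = 0.0591, edgeR) and -2.20 in KO (adjusted p = 0.00841). The sum is thus not a measure of endothelial RNA alone. Pecam1 (CD31) was at 12.0 to 63.2 CPM in WT and 38.8 to 134 CPM in KO (log2 fold change 1.23 ± 0.35, adjusted p = 0.101), Egfl7 had 0.92 ± 0.24 (adjusted p = 0.0547), Esam 0.89 ± 0.23 (adjusted p = 0.0598) and Eng -0.09 ± 0.17 (adjusted p = 0.949). Of 10 blood endothelial markers, Ly6c1 rose (0.87 ± 0.21, adjusted p = 0.0390) and Cd34, which stromal cells also express, fell (-1.05 ± 0.20, adjusted p = 0.00688). Mean Ly6c1 was 112 and 206 CPM in WT and KO IntSCs, and 24.0 and 25.4 CPM in WT and KO LECs. Which IntSCs carried Ly6c1 was not tested. Others of the list moved both ways without passing, as Esm1 (-4.05 ± 1.36, adjusted p = 0.187) and Cd36 (1.35 ± 0.59, adjusted p = 0.430). The blood endothelial list summed to 1360 to 2829 CPM in WT and 1118 to 1595 CPM in KO IntSCs. Most of this sum came from Cd34 (mean 1685 and 816 CPM), and the median log2 fold change over the 10 markers was 0.16. The ratio of Flt1 to Pecam1 counts was 1.71 ± 1.03 in WT (SD, n = 6) and 1.21 ± 0.11 in KO IntSCs (n = 5), with medians of 1.25 and 1.27. The ratio of Kdr to Pecam1 was 1.41 ± 1.43 and 0.73 ± 0.17, with medians of 0.88 and 0.74. WT IntSC 4 had ratios of 3.75 for Flt1 and 4.26 for Kdr, and without it the WT means were 1.30 and 0.84. The 9 LEC markers summed to 292 to 464 CPM in WT and 410 to 688 CPM in KO IntSCs, most of it from Pdpn (mean 236 and 326 CPM) and Nrp2 (128 and 172 CPM). The median log2 fold change over the 6 LEC markers tested was -0.17, none passed the threshold, Lyve1 had a mean of 5.44 CPM in WT and 5.41 CPM in KO, and Prox1 was at 0 or 1 read. KO IntSC 4, which had the highest Flt4, also had the highest LEC marker sum of its group (688 CPM, others 410 to 544 CPM). Lyve1 was at 16.6 CPM in that library and at 0.653 to 4.38 CPM in the other KO IntSCs. The highest Lyve1 of the WT IntSCs was 21.4 CPM, in WT IntSC 3. The part of endothelial cells in the receptor values was not tested.

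Across the 11 IntSC libraries the receptors did not vary as a set. Flt1 and Kdr had a Pearson r of 0.81 on log2(CPM + 1) (Spearman rho 0.87), Flt1 and Flt4 had -0.01 (0.17), and Kdr and Flt4 0.18 (0.33). Flt1 and Pecam1 had r of 0.85 (rho 0.89), and 0.95 over 9 libraries when the 2 farthest in Pecam1 were left out. With the sum of the 8 pan-endothelial markers, Flt1 had r of 0.80 (rho 0.50), and 0.50 over 9 libraries without the 2 farthest in that sum. Within the 6 WT libraries r with the sum was -0.06. Of the single markers besides Pecam1, r with Flt1 was 0.75 for Egfl7, 0.71 for Esam, 0.68 for Tie1 and 0.45 for Tek. It was 0.37 for Cdh5, 0.27 for Erg and -0.43 for Eng. Within the 6 WT libraries alone the Flt1 and Pecam1 values gave r of 0.55 (rho 0.77). For Flt1 in those WT libraries, r was 0.64 with Tek, 0.41 with Tie1 and 0.25 with Cdh5. It was -0.18 with Esam, -0.27 with Egfl7, -0.29 with Eng and -0.43 with Erg. For Kdr, r over the 11 libraries was 0.51 with Pecam1, 0.54 with the sum and 0.79 with Tie1 (-0.11, -0.60 and 0.74 within WT). For Flt4 it was 0.01 with Pecam1 and 0.28 with the sum (-0.62 and -0.21 within WT). These are descriptions of libraries that share a sort and a normalization, and the pooled values join 2 genotypes.

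**Figure D3:**
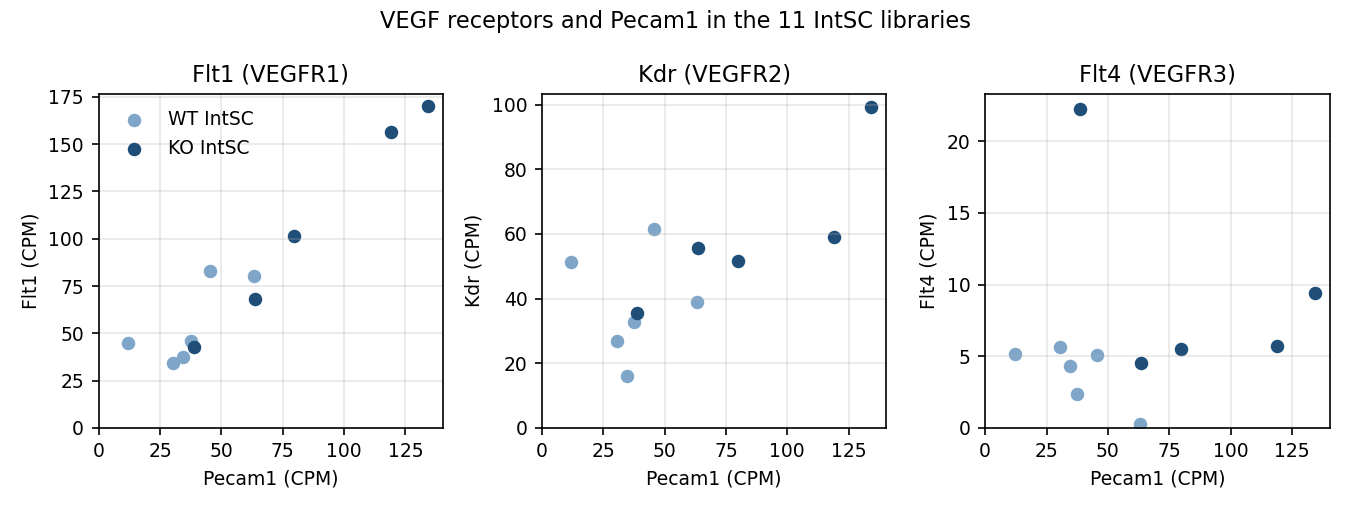
Flt1, Kdr and Flt4 against Pecam1, all in CPM, with 1 point per IntSC library (6 WT, 5 KO). Flt1 and Pecam1 are both highest in KO IntSC 2 and 3, the WT library lowest in Pecam1 (12.0 CPM) has 45.1 CPM of Flt1, and the highest Flt4 (22.2 CPM) comes from a KO library with 38.8 CPM of Pecam1.

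LECs from KO mice were compared with LECs from WT mice to ask whether receptor transcripts on lymphatic cells differ when the stroma around them lacks LATS1/2. No receptor passed the threshold, which 0.0658% of genes did (7 of 10639), and with edgeR none of the 3 had an unadjusted p under 0.05. Flt4 had a log2 fold change of -0.22 ± 0.18 (interval -0.61 to 0.18, adjusted p = 0.9999), and all 3 KO LEC libraries, at 1159 to 1274 CPM, lay just below the lowest WT LEC library at 1291 CPM. This non-overlap in the lower direction was shared by 5.8% of genes. Kdr had -0.39 ± 0.22 (-0.87 to 0.09, adjusted p = 0.799), with 2 of 3 KO libraries below all 4 WT libraries. Its unadjusted p was 0.102 with edgeR, 0.0407 with limma-voom and 0.0327 without WT LEC 2, and the adjusted p was 0.537 or more under each alternative run. The intervals left room for a level in KO LECs up to 1.53-fold lower or 1.13-fold higher for Flt4, and up to 1.82-fold lower or 1.06-fold higher for Kdr.

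For Flt1 the LEC libraries could not resolve a difference of ordinary size. Its log2 fold change was -0.62 ± 2.20 (interval -5.36 to 4.11, adjusted p = 0.9999), since libraries with a single count stood in both groups. The direction turned to 0.73 without WT LEC 2 and to 0.85 with limma-voom. DESeq2 and limma-voom also called none of the 3 receptors between the LEC groups.

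The change with genotype was also compared between the cell types (the KO to WT difference in LECs less that in IntSCs). All 3 estimates were negative, at -1.67 ± 1.56 for Flt1 (interval -4.97 to 1.62, adjusted p = 0.740), -1.13 ± 0.45 for Kdr (-2.06 to -0.20, unadjusted p = 0.0198, adjusted p = 0.211) and -1.58 ± 0.74 for Flt4 (-3.12 to -0.03, unadjusted p = 0.0461, adjusted p = 0.304). None passed the threshold, 1.7% of genes did, and the median over all genes was -0.24. The same libraries enter this comparison and those above.

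The balance between receptors was described by ratios of counts in each library. In WT LECs the Flt4 to Kdr ratio was 1.07, 1.36, 0.849 and 0.919, and in KO LECs it was 0.977, 1.35 and 1.22. The 2 genotypes overlapped, with mean log2 ratios of 0.05 ± 0.30 (SD, n = 4) and 0.23 ± 0.24 (n = 3). In IntSCs the mean log2 ratio was -3.60 ± 1.79 in WT (n = 6) and -2.85 ± 1.22 in KO (n = 5), with KO IntSC 4 at -0.68 and the other KO libraries at -3.60 to -3.22. The Kdr to Flt1 mean log2 ratio was -0.55 ± 0.51 in WT and -0.74 ± 0.48 in KO IntSCs, and it was 5.34 to 13.5 in LEC libraries, where it followed the few Flt1 counts. Reads were counted at 3′ ends, so the ratios carry any difference in priming between the genes, and only their differences between groups were read.

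Flt1 counts did not separate its forms. GENCODE vM21 lists 2 protein-coding Flt1 transcripts, 1 of 30 exons that ends at chr5:147561604 and 1 of 13 exons that ends at chr5:147635159, so that their 3′ ends are 73.6 kb apart. Flt1 is known for a soluble form that binds ligand without signalling, and the deposited gene counts sum whatever ends were assigned to the symbol.

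The ligands were IntSC transcripts in part. Vegfc, the main VEGFR3 ligand, was the ligand that rose in KO IntSCs: its lowest, median and highest values were 0.621, 10.2 and 14.4 CPM in WT, and it was at 55.2, 17.0, 108, 67.0 and 55.0 CPM in KO, so that each KO library exceeded each WT library, as for 1.63% of genes. The log2 fold change was 2.64 ± 0.51 (adjusted p = 0.00861), and the call was lost in 3 of 19 alternatives, at most at an adjusted p of 0.452 with all 4 groups in 1 fit and at 0.0504 without KO IntSC 3. In LECs Vegfc was at 0 to 3.32 CPM in WT (0, 27, 1 and 2 counts), and no read was counted in any KO LEC library. With 3 counts per library as the floor, the KO IntSC mean of Vegfc (60.6 CPM) was 142-fold the highest floor of the KO LEC libraries (0.427 CPM).

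Vegfa, the ligand of VEGFR1 and VEGFR2, was at 29.4 to 53.6 CPM in WT IntSCs and at 22.1 to 87.5 CPM in KO IntSCs (log2 fold change 0.29 ± 0.32, adjusted p = 0.900). It was lower in LECs, at 8.94, 1.23, 0.281 and 0.596 CPM in WT (log2 fold change -3.97 ± 0.86, adjusted p = 0.00353) and at 1, 2 and 0 counts in KO. The size in WT turned on WT LEC 1, which also had the highest summed stromal markers of the LECs, and without it the log2 fold change was -5.95 (adjusted p = 1.92e-05). Figf (VEGF-D), the second VEGFR3 ligand, was at 9.50 to 50.8 CPM in WT IntSCs and 32.6 to 43.7 CPM in KO IntSCs (0.67 ± 0.37, adjusted p = 0.615), and at 0 to 6.96 CPM in WT LECs and 0 to 0.285 CPM in KO LECs. Between KO LECs and KO IntSCs, Vegfa, Vegfc and Figf were lower in LECs (adjusted p of 0.000171, 0.000230 and 0.000244), which is 3 of 5 ligands, where 16.8% of all genes were called lower. Vegfb and Pgf, which bind VEGFR1, differed past the threshold in none of the 5 comparisons with edgeR, and DESeq2 called Pgf higher in KO LECs than in KO IntSCs (adjusted p = 0.0318). Pgf was at 18 to 93.5 CPM in WT LECs and 30.1 to 97.2 CPM in KO LECs, and at 5.66 to 49.4 and 8.22 to 32 CPM in WT and KO IntSCs. Vegfb was at 19.1 to 114 CPM in WT LECs, had no read in KO LEC 3 and was at 46.9 and 49.3 CPM in the other 2 KO LECs.

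Of the neuropilins, Nrp2 was higher in LECs and Nrp1 in IntSCs. Nrp2, the co-receptor of VEGFR3, was at 928, 1032, 765 and 993 CPM in WT LECs and 88.6 to 160 CPM in WT IntSCs (log2 fold change 2.85 ± 0.22, adjusted p = 1.98e-07), and was also higher in KO LECs than KO IntSCs (2.26 ± 0.27, adjusted p = 0.000237). Nrp1, a co-receptor for VEGF-A, was lower in LECs in both genotypes: -3.31 ± 0.70 in WT (adjusted p = 0.00331) and -5.63 ± 0.77 in KO (adjusted p = 0.000493). In WT LECs it was at 34.5, 34.9, 26.3 and 0.497 CPM, against 184 to 318 CPM in WT IntSCs. Neither co-receptor passed the threshold between KO and WT, with adjusted p of 0.696 for Nrp1 and 0.595 for Nrp2 in IntSCs.

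**Figure D4:**
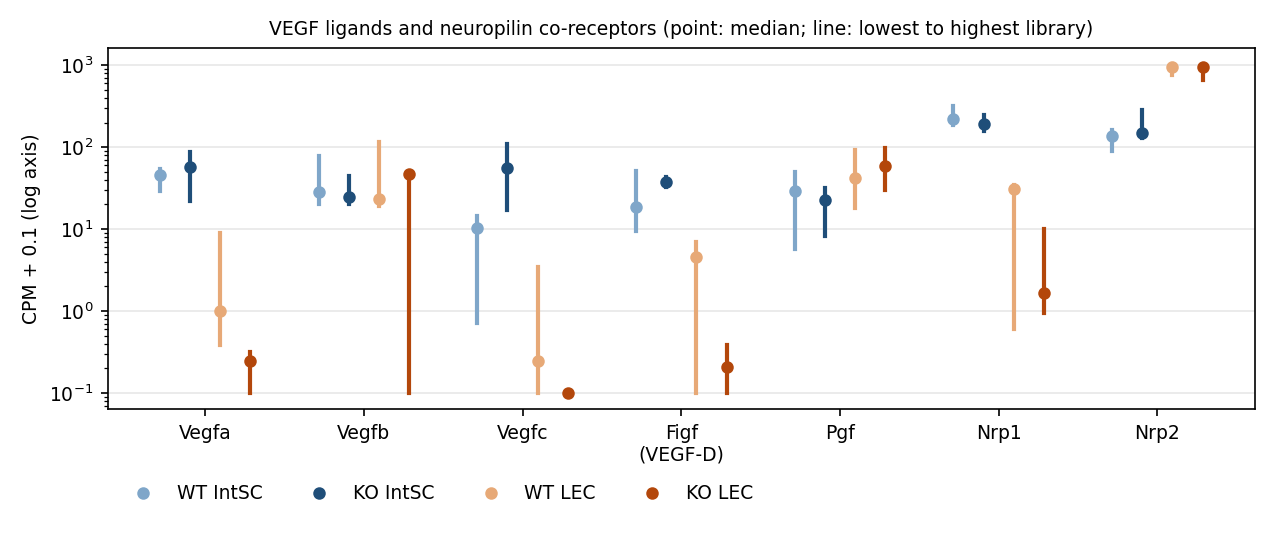
Median (point) and range over libraries (line) of VEGF ligands and neuropilins in the 4 groups, as CPM + 0.1 on a log axis. Nrp2 is highest in LECs and Nrp1 in IntSCs, and the KO IntSC range of Vegfc (17.0 to 108 CPM) lies above the WT IntSC range (0.621 to 14.4 CPM).

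The wider VEGF receptor pathway was taken as 97 genes (ligands, processing enzymes of VEGF-C, co-receptors, receptor partners, signalling proteins, endothelial transcription factors and response genes). In IntSCs, of 89 tested with edgeR, 2 rose and 1 fell in KO, which is 3.37% against 1.47% of all genes, and DESeq2 called 8 of 94 and limma-voom 2 of 89. The median log2 fold change over the list was 0.16, and over all genes it was 0.00. Besides Vegfc, Angpt2, which modulates the TIE2 receptor and is induced by VEGF, rose (0.808 to 7.66 CPM in WT and 7.25 to 29.6 CPM in KO, log2 fold change 2.73 ± 0.65, adjusted p = 0.0378), and Pik3r1, a regulatory subunit of phosphoinositide 3-kinase, fell (445 to 676 CPM in WT and 247 to 446 CPM in KO, log2 fold change -0.78 ± 0.18, adjusted p = 0.0318). Both calls were close to the threshold, and were lost in 11 and 8 of 19 alternatives. The Angpt2 call was lost without WT IntSC 1, 2, 3, 4 or 5 or KO IntSC 1, 3, 4 or 5 (adjusted p up to 0.124, without KO IntSC 3). The Pik3r1 call was lost without WT IntSC 1, 3 or 4 or KO IntSC 1, 3 or 5 (adjusted p up to 0.107, without KO IntSC 1).

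In LECs none of 85 pathway genes tested passed the threshold between KO and WT with edgeR, where 11 had an unadjusted p under 0.05, and limma-voom called 0 and DESeq2 4 of 88. Between WT LECs and WT IntSCs, 33 of 92 genes were higher (35.9%, against 10.3% of all genes) and 9 lower (9.78%, against 12.3%), with a median log2 fold change of 0.58 against -0.04 over all genes. Transcription factors made up 13 of the 33, and Prox1 (9.11 ± 0.83), Tbx1 (8.72 ± 0.66), Elk3, an ETS factor (2.62 ± 0.25), and Nr2f2, the venous and lymphatic factor COUP-TFII (1.98 ± 0.21), were among those named. Prox1 also served as a marker in the check of the sort. Tbx1, Foxc2 and Nrp2 are in the LEC marker list as well, and Cdh5, Erg, Nos3, Sox17 and Esm1 are in the endothelial marker lists. Because genes were put on the pathway list as endothelial, its larger share higher in LECs was partly fixed by that choice. This holds for the KO comparison below too. Itga9, an integrin subunit that binds VEGF-C and VEGF-D, was 2.47 ± 0.25 higher, the focal adhesion protein gene Pxn 3.45 ± 0.28 higher, and Pik3r1 lower (-2.10 ± 0.21). All 8 genes with the smallest p, Nrp2 among them, had adjusted p of 4.25e-06 or less.

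In KO mice 29 of the 92 genes were higher in LECs (31.5%, against 9.11% of all genes) and 16 lower (17.4%, against 16.8%), with a median of 0.59 against -0.21 over all genes. Prox1 (9.46 ± 0.93), Elk3 (2.88 ± 0.29), Pxn (2.66 ± 0.26) and Ctsd, the protease cathepsin D (2.17 ± 0.19), were higher in LECs, and the kinase gene Akt2 was lower (-3.28 ± 0.29), all with adjusted p of 6.99e-05 or less. Sox17, an arterial transcription factor, had no read in the 3 KO LEC libraries and was at 24.0 to 75.7 CPM in KO IntSCs. Its KO IntSC mean (46.2 CPM) was 108-fold the highest 3-count floor of the KO LEC libraries (0.427 CPM). In WT LECs Sox17 was at 0, 10.8, 0 and 13.7 CPM, so some WT LEC libraries had no read either. In the test of the genotype effect between cell types, 3 of 95 genes passed with edgeR (3.16%, against 1.7% of all genes), where DESeq2 called 9 and limma-voom 1. In all 3 the KO to WT difference was more negative in LECs than in IntSCs, and they were Hspb1, a small heat shock protein downstream of p38 signalling (-2.26 ± 0.42, adjusted p = 0.00614), Sox17 (adjusted p = 0.0292) and Vegfc (adjusted p = 0.0390). This direction was the common one, since of all 238 genes called in this test 199 were negative and 39 positive. Hspb1 was at 147 to 232 CPM in WT LECs and 49.1 to 68.2 CPM in KO LECs, and at 46.0 to 94.3 and 58.5 to 124 CPM in WT and KO IntSCs. The LEC difference alone did not pass for Hspb1 (-1.77 ± 0.34, adjusted p = 0.0796). The Hspb1 call held without any single library, the Sox17 call was lost without KO IntSC 2 or any 1 KO LEC library (adjusted p up to 0.0681), and the Vegfc call was lost without any 1 of 13 libraries, most of all WT LEC 2 (adjusted p = 0.143).

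The genes with the pattern most like each receptor were ranked by Pearson r of log2(CPM + 1) among 10727 genes with a mean of at least 5 CPM. Across the 18 libraries, Kdr was most like Nqo1, Tspan14, Sdpr, Mmrn2 and Emcn (r of 0.983 to 0.979) and Flt4 was most like Gpr182, Aqp1, Lcn2, Sh3gl3 and Degs1 (0.984 to 0.981). Kdr and Flt4 had r of 0.96, and Flt4 ranked 30 among the genes most like Kdr. These values follow the split of 11 IntSC and 7 LEC libraries. Flt1 was most like Sort1, Filip1l, Nupr1, Ubn2 and Cdan1 (0.956 to 0.926), and had r of -0.79 with Kdr and -0.81 with Flt4.

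Within the 7 LEC libraries the order changed. Flt1 was most like Eif3a, Cep57 and Eif2ak4 (r of 0.985 to 0.984), Kdr like Zfp282, 9130019O22Rik and Mrrf (0.971 to 0.934), and Flt4 like Shmt2, Kctd2 and Pelp1 (0.972 to 0.952). Kdr and Flt4 had r of 0.63 there, and Flt4 ranked 682 among the genes most like Kdr. Within the 11 IntSC libraries, a set chosen after seeing the data, Flt1 was most like Eif4b, Lims2, Cyp26b1, Pecam1 and Sema7a (0.977 to 0.845), and Kdr ranked 15. With so few libraries and so many genes, high r values are found for many genes, and they are given as a description.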

How the data were processed

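RNA of 18 sorted-cell libraries was prepared with the QuantSeq 3′ kit and sequenced on an Illumina NextSeq. For each library the authors deposited raw counts, whole numbers of reads assigned to a gene symbol with no normalization. The study's methods name TopHat and Cufflinks, and the submitters' processing notes name Bowtie2, edgeR and mm10. The counting program, annotation and versions are not given in the sources used here. Counts of the 35 symbols on more than 1 row were summed.

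Groups and replicate numbers came from sample titles. Differences were fitted in edgeR 4.0.16 (R 4.3.3, TMM factors, filterByExpr, robust quasi-likelihood fit), with Benjamini-Hochberg adjustment over all genes tested and a threshold of 0.05. Only compared groups entered a fit, and all 4 entered the interaction. Standard errors came from the F statistic, and a small prior count enters fold changes. The procedure was tested on simulated counts. Alternatives were DESeq2 1.42.0, limma-voom (limma 3.58.1), upper-quartile or RLE factors, retention of all genes with 1 read, exclusion of Rn45s, the replicate number as a block, all 4 groups in 1 fit and each library left out. They were applied to the pathway genes after the data were seen. The genes named were the receptors, 5 ligands and 2 neuropilins, up to 8 other pathway genes per comparison with the smallest p past the threshold, and the 5 (18 libraries) or 3 (LECs) genes most like each receptor. Members, gene lists and tests were chosen with earlier results of these data known. Sequences came from RefSeq.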

Additional observations from a re-analysis of the deposited data

Results flagged for a closer look

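Values were examined in 63 sets of 4 to 6 libraries, in each of which the highest and the lowest library were compared with the rest by Dixon's gap test. The test set 12 values apart, from 7 libraries, where about 1 in 20 sets is set apart by chance (3.15 of 63). Some of the measures overlap, as Flt4 and its ratios do. For the receptors, Flt4 in KO IntSC 4 was at 22.2 CPM, above 4.51 to 9.39 CPM in the other 4 KO IntSCs. The same library stood apart in the log2 ratio of Flt4 to Kdr (-0.68, others -3.60 to -3.22), in that of Flt4 to Flt1 (-0.94, others -4.76 to -3.89) and in Nrp2 (284 CPM, others 131 to 151 CPM). WT IntSC 5, with 2 Flt4 counts, had the lowest log2 ratios of its group, at -6.91 for Flt4 to Kdr and -7.95 for Flt4 to Flt1.

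Among the ligands, Vegfa was highest in WT LEC 1 at 8.94 CPM (0.281 to 1.23 CPM in the other WT LECs), and that library also had the highest summed stromal markers, 2189 CPM against 659 to 716 CPM. Vegfc in WT LEC 2 was at 3.32 CPM (0 to 0.199 CPM in the others). Vegfb was at 77.9 CPM in WT IntSC 3 (20.1 to 35.4 CPM in the others) and at 114 CPM in WT LEC 3 (19.1 to 24.5 CPM in the others). The summed epithelial markers reached 114 CPM in WT IntSC 6, against 0.170 to 25.8 CPM in the other WT IntSCs.

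The genotype difference of 3 pathway genes differed between the cell types by the interaction test of edgeR: Vegfc by -8.45 ± 2.08 (adjusted p = 0.0390), Hspb1 by -2.26 ± 0.42 (adjusted p = 0.00614) and Sox17 by -9.92 ± 2.34 (adjusted p = 0.0292) on the log2 scale. Vegfc and Sox17 had no read in KO LECs, so the sizes of their values depend on the prior count. Sox17 was also low or absent in WT LECs, at 0, 10.8, 0 and 13.7 CPM.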

How the results depend on the processing

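For the 3 receptors in 5 comparisons, 274 of 279 alternative values kept the direction and the call, and 13 of 15 results kept both under every alternative run. The exceptions were Flt1 between KO and WT LECs, reversed to 0.85 with limma-voom and ranging from -1.30 to 0.73 over left-out libraries (0.73 without WT LEC 2), and Flt1 between WT LECs and WT IntSCs, which passed with DESeq2 (-2.58), limma-voom (-5.10) and without WT LEC 2 (range over left-out libraries -3.90 to -2.13). The cause was not tested. Counts of genes past the threshold moved more. Between KO and WT IntSCs, 183 became 455 with DESeq2, 27 with all 4 groups in 1 fit and 99 to 186 over left-out libraries. The lowest counts came without KO IntSC 3 (99), KO IntSC 2 (101), KO IntSC 1 (105), KO IntSC 5 (121) and WT IntSC 1 (121). Between KO and WT LECs, 7 became 417 with DESeq2, 12 with limma-voom, 32 with no filter beyond 1 read, 538 with all 4 groups in 1 fit and 0 to 16 over left-out libraries, as without WT LEC 3 (0) and KO LEC 2 (16). For the interaction, 238 became 1130 with DESeq2, 143 with limma-voom and 161 to 461 over left-out libraries, the highest without KO LEC 2.

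Replicate numbers did not mark a shared animal in the labels, so they were not treated as pairs. The deviations of same-numbered libraries had mean correlations of 0.0156, 0.00281, 0.0327 and 0.00566 in the 4 comparisons. Those of differently numbered libraries had -0.000864, -0.000941, -0.00654 and -0.00147. The 4 same-numbered pairs of WT LECs and WT IntSCs all lay at 0.0292 to 0.0390. Whether such pairs share an animal was not tested. When the replicate block was added, the genes past the threshold were 3 between LECs, 1596 between WT LECs and WT IntSCs (2763 without), 895 between KO LECs and KO IntSCs (3302 without) and 16 for the interaction. No receptor changed its call with the block, while Nrp1 between WT LECs and WT IntSCs lost its call (adjusted p = 0.0610), as did Pik3r1 (0.0906) and Angpt2 (0.0670) between KO and WT IntSCs, and the log2 fold change of Flt1 was 0.80 between KO and WT IntSCs and -4.65 between WT LECs and WT IntSCs.

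For the other genes, reversals were in values that passed no threshold. Vegfb reversed between IntSC groups without WT IntSC 3 (range -0.60 to 0.022), between LEC groups without WT LEC 3 or KO LEC 3 (-0.94 to 0.54), between WT cell types with the block (-0.10) and without WT LEC 3 (-0.70 to 0.72), between KO cell types with limma-voom (-2.32), the block (-0.61) and 2 left-out libraries (-0.32 to 0.74), and in the interaction (-0.66 to 0.87). Pgf (-0.12 to 0.87) and Nrp2 (-0.20 to 0.064) reversed between LEC groups without KO LEC 3. The interaction calls of Vegfc, Sox17 and Hspb1 were lost in 15, 6 and 1 of 25 alternatives. Another scaling moved the median of all genes by -0.11 (upper quartile, WT LECs against WT IntSCs) and 0.11 (RLE, interaction). Counting error was widest for Flt1 in the 3 LEC libraries with 1 count (total counts of 6900493 to 10546534) and for Flt4 in WT IntSC 5 with 2 counts (total 7971443), so low values were not confined to shallow libraries.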
